A study of Mus musculus with 19 samples.

Results

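The nuclear genes for the protein subunits of the mitochondrial ribosome, named Mrpl for the large subunit and Mrps for the small subunit, were examined in mouse heart. Members were taken by name from the gene table, and names marked as pseudogenes (-ps) were left out. This gave 78 genes of 29726 in the table, 49 Mrpl and 29 Mrps, and 5 pseudogene names were set aside. The level of a gene is given in FPKM, a fragment count normalised to transcript length and library size.

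The mitochondrial ribosome sits in the mitochondrial matrix and makes the few proteins encoded by mitochondrial DNA, which are core subunits of respiratory chain complexes and of ATP synthase. Its RNA comes from the mitochondrial genome, but all of its proteins are encoded in the nucleus, made in the cytosol and imported, so that assembly needs gene expression in both compartments. Many subunits descend from bacterial ribosomal proteins and others were added in the mitochondrial lineage; the heart, with its dense mitochondria, depends on their product.

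The series compared hearts of C57BL/6NTac mice raised germ-free and given 1 of 2 gut microbiomes by faecal transfer, a dysbiotic one from donors lacking the cytokine gene Il10 (Il10-/-) or a normal one from wild-type donors. The groups were males with the dysbiotic microbiome (M_DM, 5 mice), males with the normal microbiome (M_NM, 4 mice), females with the dysbiotic microbiome (F_DM, 5 mice) and females with the normal microbiome (F_NM, 5 mice), 19 libraries in all. All mice were labelled WT, were 2 months old and had no microbiota of their own before the transfer. One poly(A)-selected library was made from a piece of heart per mouse; the labels call the cell type cardiocytes, and give neither cage nor library batch. An effect of the microbiome cannot be told apart from one of cage or batch where these followed the groups.

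The label heart was checked against marker genes. The 8 cardiomyocyte markers summed to between 14272 and 19024 FPKM per library, against 125 to 148 FPKM for 7 fibroblast markers and 84.2 to 104 FPKM for 6 endothelial markers. Red blood cell markers (5) summed to 932 to 2763 FPKM, and smooth muscle and pericyte markers (5) to 195 to 315 FPKM. Markers of other cell types were thus also detected. Myh6, the cardiac myosin heavy chain, averaged 2736 FPKM. Of 6 skeletal muscle markers, which summed to 500 to 657 FPKM, 1 passed the filter on low values. Between 9932 and 10574 genes reached 1 FPKM per library, and transcripts of mitochondrial DNA made up between 51.1% and 57.4% of all FPKM. The table holds no read counts, so the depth of each library is unknown and no counting interval is given. In bulk tissue, fewer cells of a type and less RNA per cell cannot be told apart.

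All 78 genes were found in every library, with at least 1 FPKM in each, and all 78 passed the filter for testing (at least 1 FPKM in at least 4 libraries), which left 10866 genes. The members' mean levels over the 19 libraries ran between 1.44 and 58.1 FPKM with a median of 11.3 FPKM, against a median of 3.76 FPKM over all genes tested. The Mrpl genes had a median of 13.1 FPKM and the Mrps genes one of 9.17 FPKM. The 30 Mrpl genes with a bacterial counterpart had a median of 11.8 FPKM, and the 19 found only in mitochondria one of 15.1 FPKM. Among Mrps genes these medians were 9.12 FPKM for 18 genes with a bacterial counterpart and 9.76 FPKM for 11 without.

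Upstream sequence is shown for 5 members, because regulators of mitochondrial biogenesis are known to act on such promoters: the high-level genes Mrpl12 and Mrps21, Mrpl43 and Mrps24, which had the smallest p of all members in the comparisons of males and of females given below, and Mrpl39, which differed between the sexes. Each run holds the 200 bases before the start annotated by RefSeq on GRCm38.p6, written 5′ to 3′ on the gene's strand. For Mrpl12, Mrpl43 and Mrps21 this start lies within 24 bases of the start of the GENCODE M21 gene. For Mrps24 and Mrpl39 it lies 7979 and 498 bases inside the GENCODE gene, whose outermost transcript start is further upstream, and 11 and 14 bases from the nearest GENCODE transcript start. Capitals mark the letters of a searched motif or of its reverse complement.
Mrpl12, chr11:120484437-120484636, plus strand: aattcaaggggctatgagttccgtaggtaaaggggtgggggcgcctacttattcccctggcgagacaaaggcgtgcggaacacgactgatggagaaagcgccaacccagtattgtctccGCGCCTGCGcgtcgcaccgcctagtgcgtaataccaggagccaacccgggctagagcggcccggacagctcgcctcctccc
Mrpl39, chr16:84735245-84735444, minus strand: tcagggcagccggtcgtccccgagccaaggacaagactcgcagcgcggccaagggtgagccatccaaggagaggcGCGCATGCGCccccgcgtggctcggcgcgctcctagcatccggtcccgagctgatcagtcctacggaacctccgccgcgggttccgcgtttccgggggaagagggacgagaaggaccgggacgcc
Mrpl43, chr19:45006443-45006642, minus strand: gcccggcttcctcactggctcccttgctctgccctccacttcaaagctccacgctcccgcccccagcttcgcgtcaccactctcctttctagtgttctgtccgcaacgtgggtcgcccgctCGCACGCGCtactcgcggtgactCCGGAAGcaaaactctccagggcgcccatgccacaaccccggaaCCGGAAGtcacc
Mrps21, chr3:95871515-95871714, minus strand: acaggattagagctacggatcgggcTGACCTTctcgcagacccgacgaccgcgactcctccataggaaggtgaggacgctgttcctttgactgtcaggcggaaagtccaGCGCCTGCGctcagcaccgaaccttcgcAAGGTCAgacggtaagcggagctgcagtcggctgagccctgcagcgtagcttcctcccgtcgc
Mrps24, chr11:5707702-5707901, minus strand: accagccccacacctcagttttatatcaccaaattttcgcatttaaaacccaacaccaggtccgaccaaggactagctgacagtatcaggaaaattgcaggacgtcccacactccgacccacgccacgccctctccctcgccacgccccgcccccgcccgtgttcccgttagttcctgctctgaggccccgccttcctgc

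Motifs were searched on both strands in the window of 250 bases before to 50 bases after the start, which was held for 69 of 78 members. Mrpl4, Mrpl13, Mrpl15, Mrpl19, Mrpl38, Mrpl54, Mrps28, Mrps34 and Mrps35 had no entry. The letters CGCANGCGC of nuclear respiratory factor 1 (NRF1), a transcription factor of mitochondrial genes, stood in 18 of the 69 promoters (26.1%), against 14.6% of 7919 promoters of genes tested and 6.59% of all 27025 promoters. The letters CCGGAAG, bound by ETS factors such as GABPA (nuclear respiratory factor 2), stood in 25 members (36.2%), against 18.8% of tested genes and 9.12% of all promoters. ATGGCGG of YY1 stood in 13 members (18.8%, against 9.0% and 4.19%), and AAGGTCA of the oestrogen-related receptors (ERR) in 4 (5.80%, against 3.20% and 4.66%). These are matches of letters, not binding sites, and no test was made. The printed windows show the range: Mrpl43 holds 1 NRF1 and 2 ETS matches, Mrpl12 holds NRF1 letters, Mrps21 holds NRF1 and ERR letters, and Mrps24 holds none of the 4 motifs.

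Within the large subunit, Mrpl12 had the highest mean level, 51.5 FPKM; its protein forms the stalk that contacts translation factors. Mrpl12 measured 50.4, 55.2, 53.6, 46.6 and 67.7 FPKM in M_DM hearts, against 51.8, 47.2, 48.2 and 46.2 FPKM in M_NM hearts. It measured 58.1, 51.2, 53.0, 46.2 and 42.9 FPKM in F_DM hearts, against 46.0, 56.0, 51.2, 51.6 and 55.1 FPKM in F_NM hearts. Both pairs of groups overlapped, and the 67.7 FPKM of M_DM replicate 5 was the highest of the 19 values. Mrpl18 (44.3 FPKM) and Mrpl55 (42.0 FPKM), counterparts of bacterial L18 and L31, followed. At the low end stood Mrpl33 with 2.71 FPKM, the counterpart of bacterial L33, and Mrpl57 with 2.69 FPKM, a protein added in mitochondria.

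Within the small subunit, Mrps23 had the highest mean of all 78 members, 58.1 FPKM. Mrps21 (38.7 FPKM), the counterpart of bacterial S21, and Mrps7 (21.9 FPKM), the counterpart of bacterial S7, came next. Mrps30 (3.20 FPKM) and Mrps10 (1.44 FPKM) were lowest among the Mrps genes. Mrps30 keeps a small subunit name although structures place its protein in the large subunit, and the Mrps36 protein is today assigned to the 2-oxoglutarate dehydrogenase complex.

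**Figure D1:**
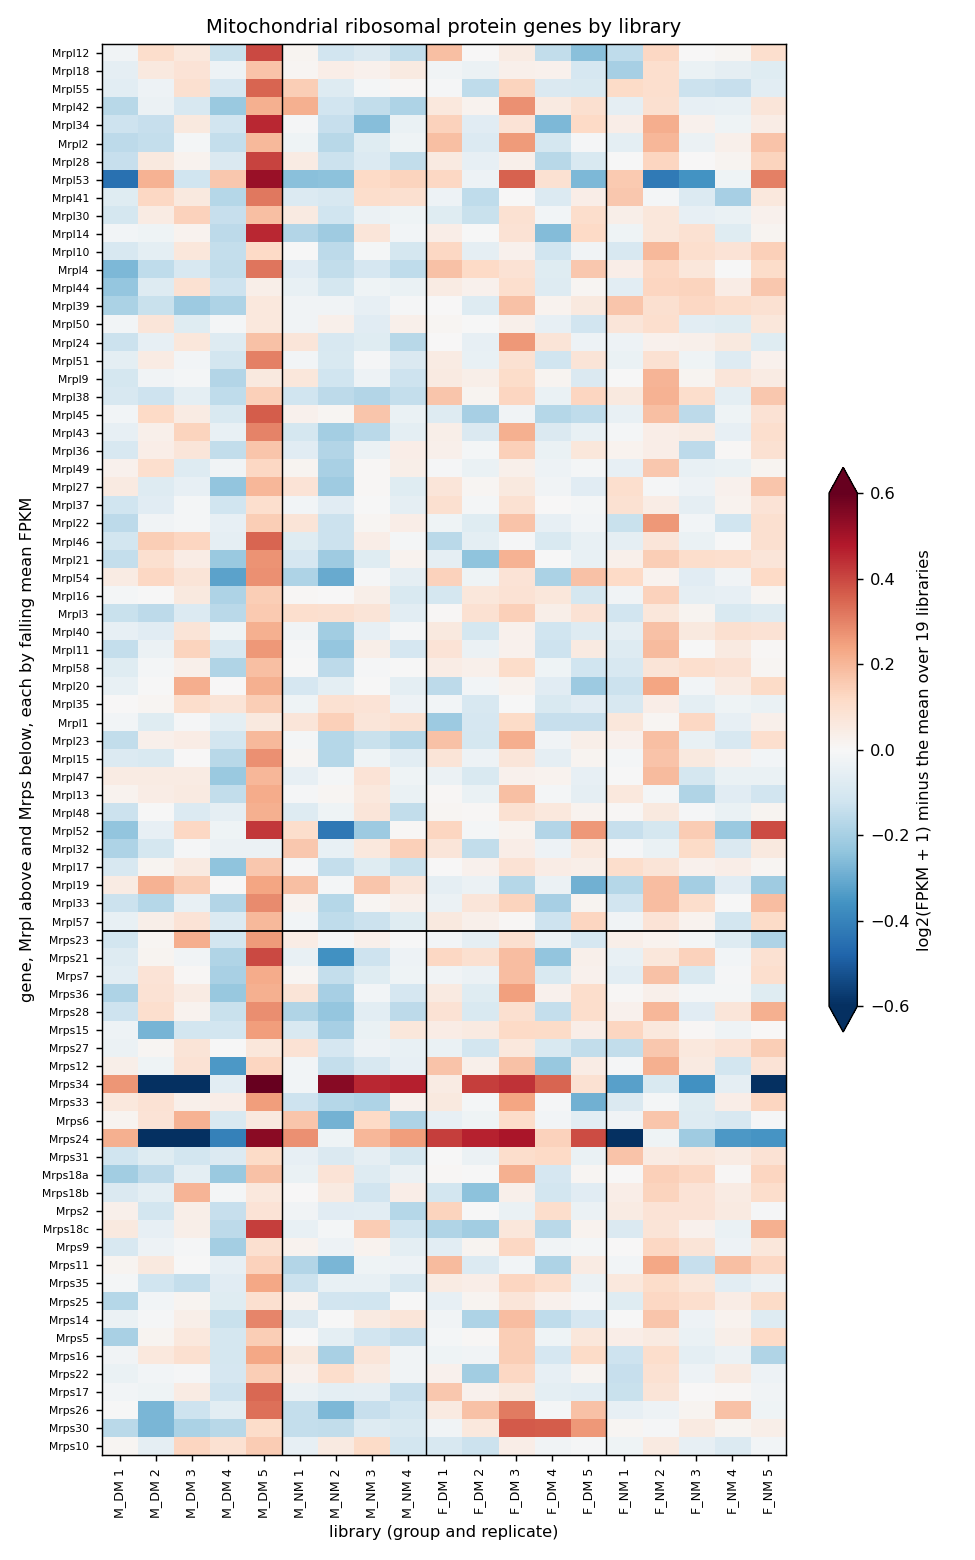
Each row is 1 of the 78 genes, Mrpl above and Mrps below, ordered by falling mean FPKM; each column is 1 library, by group and replicate. Colour gives log2(FPKM + 1) minus the gene's mean over the 19 libraries; M_DM replicate 5 is above the mean for 77 of 78 genes, and Mrps24 and Mrps34 stand out from the rows around them.

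Within groups the members varied about as much as all genes tested. The median SD within groups was 0.11 on the log2(FPKM + 1) scale, against 0.10 for all genes tested. The ratio of the highest to the lowest of the 19 libraries had a median of 1.41 over members and 1.52 over all genes tested, whose median level was lower. Mrpl35 was the steadiest member with an SD within groups of 0.06, and the most variable were Mrps34 (0.44), Mrps24 (0.33), Mrpl53 (0.29) and Mrpl52 (0.23). Over the 78 members this SD went with the GC content of the transcripts (Spearman's rho 0.50) and against their length (rho -0.51), and so did the mean level (rho 0.53 with GC and -0.62 with length). These correlations describe genes measured in the same libraries, with shared depth and base composition, and carry no test. Exons of 31 members overlap those of another gene of the table in GENCODE M21, and the strand setting of the counting is not given in the sources used here, so reads at such exons cannot be assigned with certainty. Mrps36, Mrpl48, Mrpl27 and Mrpl23 also have pseudogene copies in the table, which averaged between 0.717 and 3.50 FPKM and could share reads with them.

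One library stood apart in its members. M_DM replicate 5 had the highest level of its group for 71 of the 78 genes. Its members summed to 1384 FPKM, while the other M_DM hearts held 1050.4 to 1163 FPKM, M_NM hearts 1058 to 1143 FPKM, F_DM hearts 1099 to 1257 FPKM and F_NM hearts 1128 to 1227 FPKM. The same library had the lowest share of mitochondrial genome transcripts (51.1%) and the highest cardiomyocyte marker sum (19024 FPKM); the part of either in its high member levels was not tested. Some values that rest on this library are given with and without it. Others, such as the microbiome changes of Mrps33, Mrps34 and Mrps26, are given only with it.

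The summed level of each subunit was then set side by side. The Mrpl genes summed to 737, 799, 809, 735 and 963 FPKM in M_DM hearts, against 795, 732, 778 and 772 FPKM in M_NM hearts. They summed to 825, 771, 864, 758 and 783 FPKM in F_DM hearts, against 792, 854, 784, 783 and 840 FPKM in F_NM hearts. In both sexes the groups overlapped. The Mrps genes averaged 353 ± 40.5 FPKM in M_DM hearts (SD, n = 5; 336 ± 15.4 FPKM without replicate 5) and 341 ± 10.7 FPKM in M_NM hearts (SD, n = 4). They averaged 359 ± 20.2 FPKM in F_DM hearts and 352 ± 12.2 FPKM in F_NM hearts (SD, n = 5 each). The ratio of the Mrpl sum to the Mrps sum lay between 2.19 and 2.41 in all 19 libraries, and averaged 2.29 ± 0.0661 in M_DM and 2.25 ± 0.0210 in M_NM hearts, and 2.23 ± 0.0386 in F_DM and 2.31 ± 0.0652 in F_NM hearts.

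**Figure D2:**
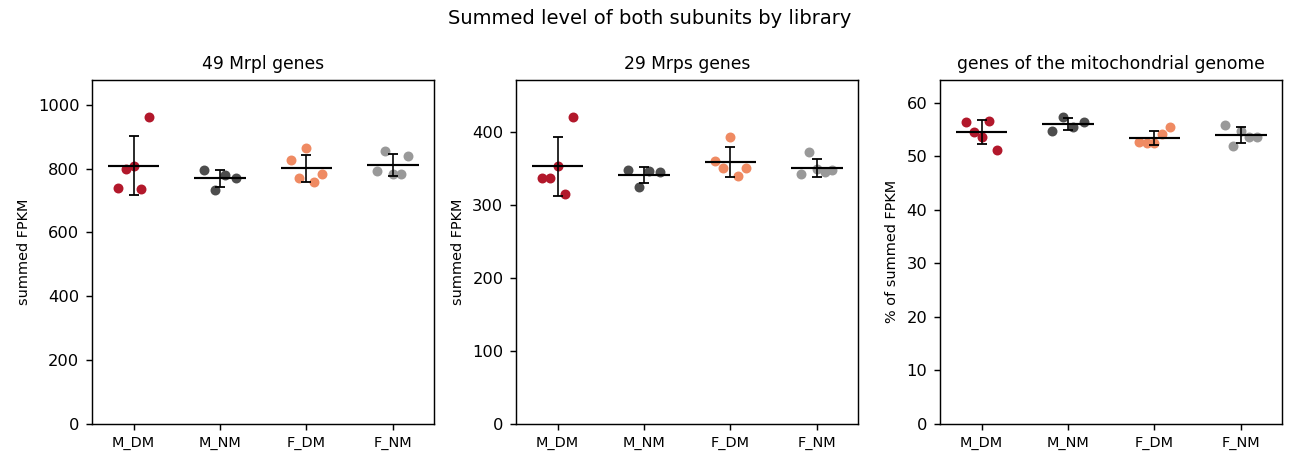
Summed FPKM of the 49 Mrpl genes, summed FPKM of the 29 Mrps genes and the percent of summed FPKM held by genes of the mitochondrial genome, with 1 point per heart and lines for the mean ± SD of each group. M_DM replicate 5 is highest in both sums (963 and 422 FPKM) and lowest in the mitochondrial genome share (51.1%).

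The first question was whether the heart's expression of these genes differed between the microbiomes. Over both sexes, 0 of 78 members passed an adjusted p of 0.05 in limma's test (all 10866 genes in 1 fit, Benjamini-Hochberg adjustment over all of them), while 5.67% of all genes tested did. At an unadjusted p under 0.05 there were 2 members (2.56%), Mrpl1 and Mrpl39, against 17.4% of all genes tested. In the authors' deposited table, which pools the sexes, 0 of 78 members had a q under 0.05, 4 had a p under 0.05 and the lowest q was 0.155, for Mrpl1. The interval of the change (95%) lay within ±0.5 on the log2(FPKM + 1) scale, a 1.41-fold change, for all 78 members. The median change was 0.01 for Mrpl genes and 0.03 for Mrps genes, and 0.02 over all genes tested. The Mrpl median was -0.02 after median-ratio scaling and -0.01 without M_DM replicate 5, so its sign depended on the scaling and on that library. Without M_DM replicate 5 the Mrps median was 0.00712, and 39 of 78 members had a positive change, against 53 with it. Of all genes tested, 55.7% had a positive change without that library and 59.5% with it.

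Mrpl1, whose protein belongs to a mobile stalk of the large subunit, had the smallest p over both sexes. It is on chromosome 5 (96209493 to 96266727, plus strand, GENCODE M21 on GRCm38). Mrpl1 measured 5.67, 5.42, 5.72, 5.48 and 6.02 FPKM in M_DM hearts, against 6.09, 6.46, 6.10 and 6.19 FPKM in M_NM hearts. It measured 4.80, 5.30, 6.30, 5.12 and 5.14 FPKM in F_DM hearts, against 6.08, 5.81, 6.35, 5.53 and 5.89 FPKM in F_NM hearts. All M_DM values were below all M_NM values, while among females the groups overlapped through the 6.30 FPKM of F_DM replicate 3. Its log2 change over both sexes was -0.12 ± 0.04 (SE; limma adjusted p = 0.0683). In limma's test it passed the threshold under median-ratio scaling (adjusted p = 0.0309), upper-quartile scaling (0.0487), scaling to nuclear genes (0.0452) and array weights (0.0432), and without F_DM replicate 3 (0.00659), and its adjusted p ranged between 0.00659 and 0.147 over all alternatives.

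Mrpl39, a large subunit protein added in mitochondria, and Mrps26, a small subunit protein added in mitochondria, were next. Mrpl39 averaged 17.0 ± 1.49 FPKM in M_DM hearts (SD, n = 5) and 18.3 ± 0.237 FPKM in M_NM hearts (SD, n = 4), and 19.2 ± 1.29 FPKM in F_DM hearts and 20.3 ± 0.466 FPKM in F_NM hearts (SD, n = 5 each). Its log2 change was -0.09 ± 0.04 (SE; limma adjusted p = 0.191). Without M_DM replicate 5, which at 19.5 FPKM was the only M_DM heart above the M_NM hearts, the change was -0.12 and passed the threshold (limma adjusted p = 0.0311). Mrps26 averaged 3.36 ± 0.713 FPKM in M_DM hearts and 2.93 ± 0.192 FPKM in M_NM hearts, and 3.87 ± 0.422 FPKM in F_DM hearts and 3.46 ± 0.293 FPKM in F_NM hearts; its log2 change was 0.13 ± 0.06 (SE; limma adjusted p = 0.289).

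In males, 0 of 78 members passed limma's test against 1.91% of all genes, and 4 (5.13%) had an unadjusted p under 0.05, against 13.6% of all genes. The smallest adjusted p was 0.164. The change was positive for 63 of 78 members (80.8%), against 58.8% of all genes tested. Its median was 0.05 for Mrpl genes and 0.05 for Mrps genes, against 0.02 over all genes tested. Without M_DM replicate 5 the change was positive for 40 of 78, against 53.6% of all genes. The medians were then 0.00086 and 0.02 and 0 members were called, so the lean to higher values in M_DM hearts rested on that library. The intervals lay within ±0.5 for 75 members, the others being Mrps24, Mrpl53 and Mrps34.

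The values of M_DM and M_NM hearts did not overlap for 3 of 78 members (3.85%), Mrpl1, Mrpl43 and Mrps33, against 4.7% of all genes tested. Mrpl43, a large subunit protein added in mitochondria whose exons overlap those of the mitochondrial helicase gene Twnk on the opposite strand, measured 14.5, 15.4, 16.6, 14.6 and 18.7 FPKM in M_DM hearts, against 13.9, 13.0, 13.3 and 14.4 FPKM in M_NM hearts. The lowest M_DM heart was thus just above the highest M_NM heart. Its log2 change in males was 0.21 ± 0.07 (SE; limma adjusted p = 0.164), and 0.15 in the lowest of the fits that left out 1 library. In females Mrpl43 averaged 15.2 ± 1.46 FPKM with the dysbiotic and 15.3 ± 0.639 FPKM with the normal microbiome (SD, n = 5 each).

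Mrps33, a small subunit protein added in mitochondria, averaged 12.7 ± 0.882 FPKM in M_DM hearts (SD, n = 5) and 10.8 ± 0.815 FPKM in M_NM hearts (SD, n = 4). The lowest M_DM and the highest M_NM heart both rounded to 12.0 FPKM. Its log2 change was 0.21 ± 0.08 (SE; limma adjusted p = 0.228). Mrpl32, the counterpart of bacterial L32 whose import form is cut by a mitochondrial protease before assembly, measured 2.51, 2.70, 2.97, 2.90 and 2.89 FPKM in M_DM hearts, against 3.47, 2.87, 3.18 and 3.41 FPKM in M_NM hearts. M_NM replicate 2 lay within the M_DM values. Its log2 change was -0.16 ± 0.06 (SE; limma adjusted p = 0.217).

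In females, 0 of 78 members passed limma's test against 2.84% of all genes, and 6 (7.69%) had an unadjusted p under 0.05, against 13.9% of all genes. The change was positive for 24 of 78 (30.8%), against 55.2% of all genes tested. Its median was -0.02 for Mrpl genes and -0.01 for Mrps genes, against 0.01 over all genes tested. Both medians were negative under each scaling tried; the Mrps median was positive in 3 of the fits that left out a library, at most 0.00198. The intervals lay within ±0.5 for 76 members, all but Mrps24 and Mrps34. F_DM and F_NM values did not overlap for 3 members (3.85%), Mrps18b, Mrps24 and Mrps34, against 4.85% of all genes tested.

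**Figure D3:**
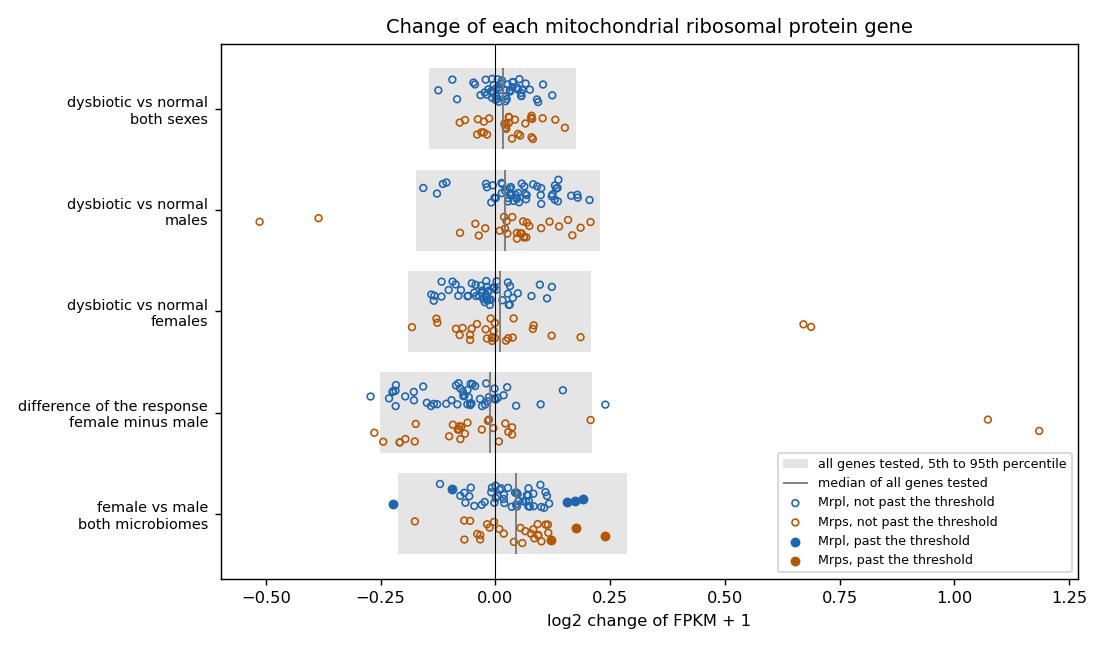
Log2 change of FPKM + 1 for each of the 49 Mrpl (blue) and 29 Mrps (orange) genes in the 5 comparisons; grey bands span the 5th to 95th percentile of all 10866 genes tested and grey lines their median. Filled points passed the threshold, which 8 members did in the comparison of the sexes and 0 in the others; Mrps24 and Mrps34 lie outside the bands in males, in females and in the difference of the response.

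Mrps24, the mitochondrial counterpart of bacterial S3 at the entry of the mRNA channel, had the smallest p in females. The gene lies on chromosome 11 (5703983 to 5715680, minus strand, GENCODE M21 on GRCm38). Mrps24 measured 13.6, 14.1, 14.4, 11.1 and 13.4 FPKM in F_DM hearts, against 6.19, 9.75, 8.45, 7.63 and 7.57 FPKM in F_NM hearts. All F_DM values were above all F_NM values. The log2 change was 0.69 ± 0.20 (SE; 95% interval 0.27 to 1.10), with a limma adjusted p of 0.0741. In limma's test it passed the threshold with female libraries alone (adjusted p = 0.00408), with array weights (0.0136), and without M_DM replicate 2 (0.0455) or M_DM replicate 5 (0.0158), libraries that enter only through the shared estimate of the spread. Over all alternatives its adjusted p lay between 0.00408 and 0.180.

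In males Mrps24 measured 11.7, 5.47, 5.99, 7.25 and 14.9 FPKM in M_DM hearts, against 12.2, 9.73, 11.6 and 12.0 FPKM in M_NM hearts. The groups overlapped: M_DM replicates 2, 3 and 4 were below all M_NM hearts and replicate 5 was above them. In log2 terms the male change was -0.38 ± 0.21 (SE; limma adjusted p = 0.446). The difference of the response, female minus male, was 1.07 ± 0.29 (SE; limma adjusted p = 0.203), and 1.26 without M_DM replicate 5, where it passed the threshold (adjusted p = 0.00687). With array weights it was 1.17 and also passed (limma adjusted p = 0.0228).

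Mrps34, a small subunit protein added in mitochondria, followed a like order of groups. Mrps34 lies on chromosome 17 (24895116 to 24897502, plus strand). It measured 11.6, 15.2, 15.4, 14.5 and 11.9 FPKM in F_DM hearts, against 8.71, 10.4, 8.47, 10.7 and 4.33 FPKM in F_NM hearts. All F_DM values were above all F_NM values. In males it measured 13.6, 5.90, 5.98, 10.6 and 18.2 FPKM in M_DM hearts, against 11.03, 16.8, 15.7 and 15.8 FPKM in M_NM hearts. These groups overlapped, with M_DM replicates 2 and 3 lowest and replicate 5 highest. Mrps34 changed by 0.67 ± 0.27 in females (SE; limma adjusted p = 0.250) and by -0.51 ± 0.29 in males (SE; limma adjusted p = 0.458), and the difference of the response was 1.18 ± 0.39 (SE; limma adjusted p = 0.415).

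Neighbouring genes, base composition and 1 gene with a like order of hearts were set beside Mrps24 and Mrps34. The exons of Mrps34 overlap those of Nme3 on the same strand and Mapk8ip3 on the opposite strand, and Mrps24 overlaps Urgcp on the same strand. Nme3 averaged 0.989 FPKM, Mapk8ip3 4.59 FPKM and Urgcp 8.53 FPKM. Urgcp averaged 8.64 ± 0.938 FPKM in F_DM hearts and 8.67 ± 0.448 FPKM in F_NM hearts (SD, n = 5 each), and Mapk8ip3 4.63 ± 0.489 FPKM and 4.67 ± 0.423 FPKM, means that differed by less than the SD within the groups. The transcripts hold 55.1% GC for Mrps24 and 59.9% GC for Mrps34, against a member median of 49.8%, and with a correction for GC content the female change was 0.69 for Mrps24 and 0.65 for Mrps34 (limma adjusted p = 0.0637 and 0.257). Chchd10, a nuclear gene for a protein of the mitochondrial intermembrane space chosen here after its values were seen, measured 114, 186, 186, 173 and 216 FPKM in F_DM hearts, against 56.3, 65.2, 72.3, 68.4 and 67.3 FPKM in F_NM hearts. In males Chchd10 measured 84.7, 48.3, 51.1, 53.6 and 144 FPKM in M_DM hearts, against 163, 143, 153 and 146 FPKM in M_NM hearts. In Chchd10 too, M_DM replicates 2, 3 and 4 were low and replicate 5 high within its group. The part of GC content, exon overlap or library in these differences was not tested.

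Mrps18b, 1 of 3 mitochondrial relatives of bacterial S18, differed the other way in females. Mrps18b measured 8.39, 7.56, 9.37, 8.41 and 8.67 FPKM in F_DM hearts, against 9.41, 10.1, 9.74, 9.49 and 9.89 FPKM in F_NM hearts. The highest F_DM heart was just below the lowest F_NM heart. Its female change was -0.18 ± 0.06 on the log2 scale (SE; limma adjusted p = 0.108), and it passed the threshold with array weights (0.0366). In males Mrps18b averaged 9.32 ± 0.852 FPKM in M_DM hearts (SD, n = 5) and 9.12 ± 0.538 FPKM in M_NM hearts (SD, n = 4). The other 2 relatives, Mrps18a and Mrps18c, did not pass in any comparison of the microbiomes.

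**Figure D4:**
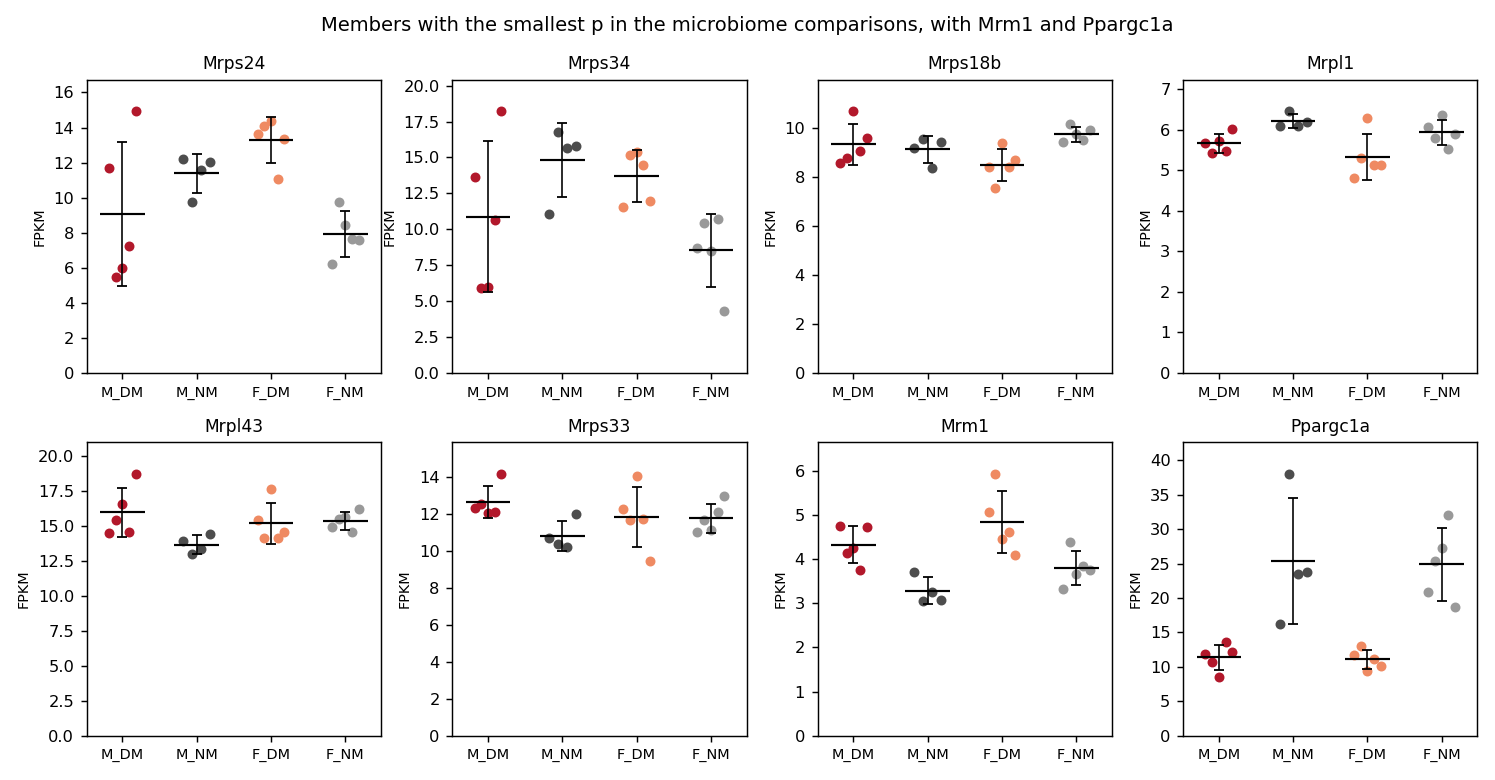
FPKM of 6 members with small p in the comparisons of the microbiomes, and of Mrm1 and Ppargc1a, with 1 point per heart and lines for the mean ± SD of each group. All F_DM hearts lie above all F_NM hearts for Mrps24 and Mrps34, and the Ppargc1a means are 11.4 and 11.1 FPKM in M_DM and F_DM hearts and 25.4 and 24.9 FPKM in M_NM and F_NM hearts.

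For the difference of the response between the sexes, 0 of 78 members passed limma's test against 0.396% of all genes, and 10 (12.8%) had an unadjusted p under 0.05, against 7.41% of all genes. The median difference was -0.06 for Mrpl genes and -0.07 for Mrps genes, against -0.01 over all genes tested, and -0.02 and -0.03 without M_DM replicate 5. After Mrps24 and Mrps34 the smallest p belonged to Mrpl3, whose protein reaches toward the peptidyl transferase centre. Mrpl3 measured 8.89, 9.47, 9.85, 9.07 and 9.43 FPKM in F_DM hearts, against 8.07, 9.29, 8.95, 8.23 and 8.32 FPKM in F_NM hearts. In males it measured 7.95, 7.83, 8.30, 7.79 and 9.97 FPKM in M_DM hearts, against 9.54, 9.498, 9.37 and 8.39 FPKM in M_NM hearts. M_DM replicate 5 was above all M_NM hearts and the other 4 M_DM hearts were below them. The difference was 0.24 ± 0.09 (SE; limma adjusted p = 0.458), and 0.30 without M_DM replicate 5, where it passed (adjusted p = 0.0428).

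Genes that work with the mitochondrial ribosome were counted beside its own proteins. Of the 5 subunits with other names (Dap3, Chchd1, Aurkaip1, Ptcd3 and Gadd45gip1), 0 passed limma's test in any comparison of the microbiomes, and Chchd1 alone had an unadjusted p under 0.05 over both sexes, with a log2 change of 0.11 ± 0.05 (SE). Of 16 translation factors and of 15 tested mitochondrial aminoacyl-tRNA synthetases, 0 passed over both sexes, with 0 at an unadjusted p under 0.05 in either list. Of the 13 protein-coding genes of the mitochondrial genome, whose products this ribosome makes, 0 passed over both sexes. In this list 1 gene had an unadjusted p under 0.05, and the changes lay between -0.12 and 0.04. Over both sexes, 5.67% of all genes tested passed and 17.4% had an unadjusted p under 0.05. The change was positive for 5 of the 5 subunits with other names, 9 of the 16 translation factors and 14 of the 15 synthetases. It was positive for 4 of the 13 genes of the mitochondrial genome and for 59.5% of all genes tested. The synthetase changes lay between -0.05 and 0.08.

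Of 25 tested assembly factors and rRNA-modifying enzymes, 1 (4%) passed over both sexes, against 5.67% of all genes tested. Mrm1, which methylates a ribose of the mitochondrial large subunit rRNA, measured 4.75, 4.13, 4.27, 3.75 and 4.74 FPKM in M_DM hearts, against 3.72, 3.06, 3.26 and 3.08 FPKM in M_NM hearts. It measured 5.06, 5.94, 4.47, 4.61 and 4.10 FPKM in F_DM hearts, against 3.33, 4.38, 3.65, 3.85 and 3.75 FPKM in F_NM hearts. The male groups did not overlap, and the female groups overlapped between F_DM replicate 5 and F_NM replicate 2. The log2 change of Mrm1 was 0.30 ± 0.06 (SE; limma adjusted p = 0.00318).

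Among 14 tested regulators of mitochondrial transcription and biogenesis, 3 passed over both sexes. Of these, 1 (7.14% of the list) was higher and 2 (14.3%) were lower, against 3.34% and 2.33% of all genes tested. Ppargc1a, the coactivator PGC-1α, measured 11.8, 10.7, 8.59, 13.6 and 12.1 FPKM in M_DM hearts, against 16.2, 38.1, 23.5 and 23.7 FPKM in M_NM hearts. It measured 11.8, 13.0, 9.44, 11.1 and 10.1 FPKM in F_DM hearts, against 20.9, 25.4, 27.2, 32.1 and 18.7 FPKM in F_NM hearts. In neither sex did the groups overlap. Ppargc1a fell by 1.06 ± 0.13 on the log2 scale (SE; limma adjusted p = 0.000127). Esrrg and Esrrb, orphan nuclear receptors that work with this coactivator, changed by -0.17 ± 0.05 (adjusted p = 0.0332) and 0.16 ± 0.04 (adjusted p = 0.0407) in limma's test. The call of Esrrb was lost in 16 of 28 alternatives and that of Esrrg in 10, with adjusted p of up to 0.0880 for Esrrb and 0.0896 for Esrrg. Beside them, the 36 members with NRF1 or ETS letters in the promoter had a median change of 0.01 over both sexes and the 33 without one of 0.02.

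Some markers of other cells also differed in the same comparison. Of the fibroblast markers, Col1a1 and Col3a1, the fibrillar collagens, changed by -0.24 ± 0.06 and -0.31 ± 0.07 over both sexes (SE; limma adjusted p = 0.0266 and 0.00921), and the other 5 of 7 did not pass. Of 6 endothelial markers, Emcn and Tek changed by 0.29 ± 0.05 and 0.17 ± 0.05 (SE; limma adjusted p = 0.00101 and 0.0495); the call of Tek was lost in 16 of 28 alternatives and that of Col1a1 in 6. The calls made up 28.6% of the fibroblast and 33.3% of the endothelial markers, against 5.67% of all genes tested. Of the 7 fibroblast markers 2 had a positive change, of up to 0.13. Of the 6 endothelial markers 5 had a positive change, against 59.5% of all genes tested. At an unadjusted p under 0.05 in limma's test there were 2 fibroblast and 4 endothelial markers (28.6% and 66.7%, against 17.4% of all genes). The endothelial changes lay between -0.10 and 0.29, and after median-ratio scaling Pecam1 was called lower. The part of cell type content in the members' values was not tested here. Of the 5 macrophage, 4 adipocyte, 5 red blood cell and 5 smooth muscle and pericyte markers tested, 0 passed. Of 8 cardiomyocyte markers 0 passed, and the summed level was 14272 to 19024 FPKM in M_DM hearts and 14459 to 15188 FPKM in M_NM hearts, and 14526 to 16010 FPKM in F_DM hearts and 14415 to 16569 FPKM in F_NM hearts.

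The last comparison set females against males over both microbiomes. Here 8 of 78 members (10.3%) passed limma's test, against 31.4% of all genes tested, and 17 (21.8%) had an unadjusted p under 0.05, against 42.2% of all genes. Of the 8, Mrps30, Mrpl38, Mrpl39, Mrps31, Mrpl4 and Mrps26 were higher in females (7.69% of members, against 23.4% of all genes) and Mrpl19 and Mrpl35 were lower (2.56%, against 7.94%). The split depended on the scaling: after median-ratio or upper-quartile scaling, 2 members were higher and 7 lower, and 4 of the 8 named here were among these 9. Median-ratio scaling moved the median of all genes to -0.0021, with 15.8% of all genes higher and 16.7% lower. With the GC correction 12 members passed, 11 higher and 1 lower, against 22.6% of all genes higher and 6.72% lower. Without M_DM replicate 5, 21 members passed, 19 higher and 2 lower, and without M_NM replicate 2 there were 5. The shares of all genes in the fits without a library are not given here. The median change was 0.04 for Mrpl genes and 0.06 for Mrps genes, against 0.04 over all genes tested; median-ratio scaling gave -0.01 and 0.00408. The intervals lay within ±0.5 for 77 members, all but Mrps34.

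Markers of several cell types also differed between the sexes. Of 8 cardiomyocyte markers Myh6 was higher in females by 0.27 ± 0.05, and of 6 endothelial markers Pecam1 and Tie1 were higher by 0.12 ± 0.04 each and Kdr was lower, with a change of -0.37 ± 0.06 (SE; limma adjusted p = 0.000798, 0.0352, 0.0411 and 0.000275). Of 5 macrophage markers Csf1r was higher by 0.16 ± 0.05, of 4 adipocyte markers Cfd was higher by 1.94 ± 0.33, and of 7 fibroblast markers Col3a1 was lower, with a change of -0.50 ± 0.07 (SE; limma adjusted p = 0.0131, 0.000416 and 2.6e-05). After median-ratio scaling Pecam1, Tie1 and Csf1r no longer passed, and Actc1, Col1a1, Col1a2 and Mrc1 were also lower. Of the 5 red blood cell and 5 smooth muscle and pericyte markers 0 passed with the deposited scaling. The part of cell type content in the members' sex differences was not tested.

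Mrps30, the member with the largest log2 change between the sexes among those that passed, measured 3.11, 3.35, 4.38, 4.36 and 3.99 FPKM in F_DM hearts and 3.20, 3.15, 3.33, 3.21 and 3.27 FPKM in F_NM hearts, against 2.72, 2.45, 2.66, 2.71 and 3.50 FPKM in M_DM hearts and 2.77, 2.76, 2.95 and 2.91 FPKM in M_NM hearts. Every female heart was above every male heart but M_DM replicate 5. On the log2 scale Mrps30 was 0.24 ± 0.05 higher in females (SE; limma adjusted p = 0.00238), and it passed in all 28 alternatives. Its exons overlap those of B430218F22Rik on the opposite strand, and reads of the pair cannot be told apart without strand.

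Mrpl38, a protein of the central protuberance of the large subunit, measured 19.3, 17.3, 18.7, 16.5 and 18.7 FPKM in F_DM hearts and 17.8, 19.8, 18.4, 16.3 and 19.2 FPKM in F_NM hearts, against 15.9, 15.6, 16.4, 15.2 and 18.9 FPKM in M_DM hearts and 15.6, 15.2, 15.0 and 15.4 FPKM in M_NM hearts. Apart from M_DM replicates 3 and 5, the male hearts were below all females. The log2 change was 0.19 ± 0.04 (SE; limma adjusted p = 0.00264), and it passed in all 28 alternatives. Mrpl39, a protein that resembles a part of threonyl-tRNA synthetase, averaged 19.2 ± 1.29 FPKM in F_DM hearts and 20.3 ± 0.466 FPKM in F_NM hearts (SD, n = 5 each), against 17.0 ± 1.49 FPKM in M_DM hearts (n = 5) and 18.3 ± 0.237 FPKM in M_NM hearts (n = 4). Its log2 change was 0.16 ± 0.04 (SE; limma adjusted p = 0.00460), and it passed in 26 of 28 alternatives.

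Mrpl19, the counterpart of bacterial L19, was lower in females. It measured 2.73, 2.78, 2.44, 2.78 and 2.17 FPKM in F_DM hearts and 2.44, 3.41, 2.37, 2.69 and 2.34 FPKM in F_NM hearts, against 3.01, 3.48, 3.30, 2.89 and 3.56 FPKM in M_DM hearts and 3.40, 2.85, 3.35 and 3.08 FPKM in M_NM hearts. F_NM replicate 2 was the only female heart among the male values. The exons of Mrpl19 overlap those of Gcfc2 on the opposite strand, so reads there cannot be assigned with certainty. Mrpl19 changed by -0.22 ± 0.05 on the log2 scale (SE; limma adjusted p = 0.00449), and it passed in all 28 alternatives. Mrpl35, the counterpart of bacterial L35, changed by -0.10 ± 0.03 (SE; limma adjusted p = 0.0257) and passed in 25 of 28; with the GC correction its change was -0.04 (adjusted p = 0.335).

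Of the remaining calls, Mrps31, a small subunit protein added in mitochondria, changed by 0.12 ± 0.04 (SE; limma adjusted p = 0.0144) and passed in 26 of 28 alternatives. Mrpl4, the counterpart of bacterial L4 that lines the exit tunnel, changed by 0.17 ± 0.06 (SE; limma adjusted p = 0.0279) and passed in 22 of 28. Mrps26 changed by 0.18 ± 0.06 (SE; limma adjusted p = 0.0390) and passed in 13 of 28. In Mrpl4 and Mrps26 the highest of all 19 hearts was M_DM replicate 5, at 26.8 and 4.54 FPKM. Without that library both still passed as higher in females. Exons of Mrps26 overlap those of 4930473A02Rik on the opposite strand.

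**Figure D5:**
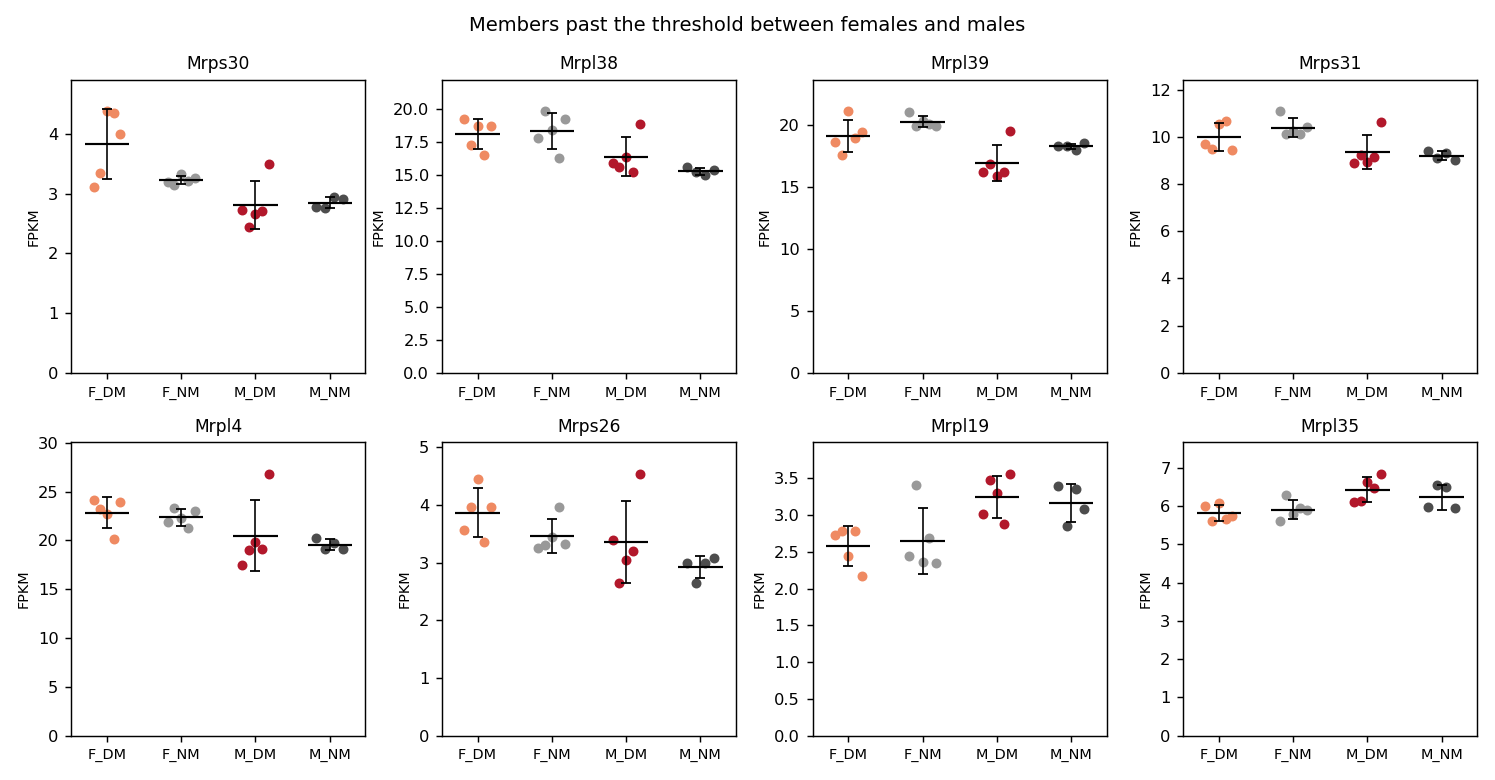
FPKM of the 8 members past the threshold between the sexes, with 1 point per heart and lines for the mean ± SD of each group, female groups left of male groups. Mrps30, Mrpl38, Mrpl39, Mrps31, Mrpl4 and Mrps26 are higher and Mrpl19 and Mrpl35 lower in females with the deposited scaling; after median-ratio scaling Mrps30, Mrpl38, Mrpl19 and Mrpl35 still passed in the same directions.

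Genes that work with the mitochondrial ribosome were set side by side between the sexes as well. They were read against the 23.4% of all genes tested that were higher and the 7.94% that were lower in females. Of 25 assembly factors and rRNA-modifying enzymes 6 (24.0%) were higher in females, among them Ngrn, by 0.18 ± 0.03, and Mpv17l2, by 0.31 ± 0.08 (SE; limma adjusted p = 0.000808 and 0.00459), and 0 were lower. Of 15 aminoacyl-tRNA synthetases 5 (33.3%) were higher, with Lars2, the leucine enzyme, highest in change at 0.35 ± 0.09 (SE; limma adjusted p = 0.00792). Of 16 translation factors 1 (6.25%) was higher and 2 (12.5%) were lower, Taco1, a translational activator of a cytochrome oxidase subunit, by -0.32 ± 0.05 and Mtif2, the initiation factor, by -0.18 ± 0.04 (SE; limma adjusted p = 7.4e-05 and 0.00186). Among the 13 mitochondrially encoded mRNAs, mt-Nd4l, mt-Co1 and mt-Atp8 (23.1%) were lower in females and 0 were higher; with the GC correction mt-Nd4l alone still passed. The counts depended on the scaling: after median-ratio scaling 5 assembly factors were higher and 3 lower, 2 synthetases were higher, and 0 translation factors were higher and 4 lower, while Ngrn, Mpv17l2, Lars2, Taco1, Mtif2 and the 3 mitochondrially encoded mRNAs passed in the same directions. Without M_DM replicate 5, 10 assembly factors were higher and 0 lower.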

How the data were processed

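Heart RNA of 19 mice was sequenced after poly(A) selection. The submitters' processing notes list StringTie 1.3.4d, HISAT2 2.0.4, cutadapt 1.9 and DESeq2; they name hg38 although the gene identifiers are mouse Ensembl IDs, and the mouse build is not given in the sources used here. The authors deposited FPKM per gene and library, normalised to transcript length and library size. They also deposited a fold change (a ratio of dysbiotic to normal), its log2 value, a p-value and a q-value, per the file headers. FPKM hold no counts: only 14.2% to 18.0% of low values fell on whole-read steps (tolerance 0.02), so no count test was run.

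Members were rows named Mrpl or Mrps plus a number, without -ps. The 10866 genes that reached 1 FPKM in 4 or more libraries were tested on log2(FPKM + 1) with limma 3.58.1 in R 4.3.3 (trend, robust empirical Bayes, 1 mean per group, 19 libraries), two-sided, Benjamini-Hochberg threshold 0.05; the pseudocount of 1 understates changes of low genes. Errors on log2 changes are SE. The fit was also run on simulated data with independent normal values per gene and no shift shared by a whole library. That run cannot show how a library such as M_DM replicate 5 acts on the results. Alternatives were other scalings, a GC correction, other filters, a pseudocount of 0.1, array weights, a replicate block, libraries of 1 sex, and leaving out each library. Members, lists, tests and alternatives were chosen with earlier results of these data known. Named members were those that passed in a comparison, otherwise the 3 with the smallest p, and the highest and lowest by level. A few others, such as Mrpl52, Mrpl53 and the exon neighbours, were named after their values were seen. Coordinates are those of GENCODE M21 on GRCm38, matched by gene ID for 78 of 78 members.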

Additional observations from a re-analysis of the deposited data

Results flagged for a closer look

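In groups of 4 or 5 hearts, a value was marked when its gap to the nearest other heart took up an unusually large part of the group's range (Dixon's criterion at 95%). Examining 108 groups for the 25 named members and the 2 subunit sums gave 12 marked values. The groups share the same 19 libraries, and members were named by their p or level. No rate expected by chance can therefore be set beside this count. M_DM replicate 5 was the high heart in 7 of the 12 marked values. It had 9.968 FPKM of Mrpl3 (other M_DM hearts 7.787 to 8.296), 3.496 FPKM of Mrpl33 (2.27 to 2.583), 19.54 FPKM of Mrpl39 (15.89 to 16.9) and 26.81 FPKM of Mrpl4 (17.5 to 19.87). It also had 3.503 FPKM of Mrps30 (2.446 to 2.723), 10.63 FPKM of Mrps31 (8.876 to 9.215) and 14.18 FPKM of Mrps33 (12.04 to 12.58).

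Among M_NM hearts, replicate 4 was low for Mrpl3 with 8.394 FPKM (others 9.373 to 9.541). M_NM replicate 2 was low for Mrpl33 with 2.283 FPKM (others 2.718 to 2.767) and for the summed Mrps genes with 325.3 FPKM (others 345 to 348.2 FPKM). Among F_NM hearts, replicate 4 was high for Mrps26 with 3.973 FPKM (others 3.258 to 3.452), and replicate 2 was high for the summed Mrps genes with 372.8 FPKM (others 342.2 to 349.3 FPKM).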

How the results depend on the processing

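Of the changes of single genes recomputed under the alternatives, 836 kept their direction and their side of the threshold, 84 lost a call, 15 gained one and 0 changed sign. These genes had been chosen for passing or for the smallest p in the reported fit, so a change of sign was unlikely from the start. Of the counts of members past the threshold, 126 stayed within 1.5 times the reported count and 16 moved further. The 284 recomputed medians of Mrpl or Mrps genes moved by less than the spread between hearts, but 8 of them changed sign: the Mrpl median over both sexes and between the sexes after median-ratio and upper-quartile scaling, the first also without M_DM replicate 5, and the Mrps median in females without F_DM replicate 2, F_DM replicate 4 or F_NM replicate 2. The spread between hearts was wider than most of the reported medians, so staying within it does not show that a median held. Over both sexes, the count of members past the threshold was 1 instead of 0 under median-ratio, upper-quartile and nuclear-gene scaling and with array weights, each time Mrpl1. Of all genes, 7.31%, 6.87%, 4.25% and 7.15% passed in these settings, in that order. In females the count of members was 2 with array weights (Mrps18b and Mrps24), against 5.38% of all genes. With female libraries alone it was 1 (Mrps24), against 2.84%. In the difference of the response it was 1 with array weights (Mrps24), against 0.782% of all genes. Between the sexes it was 18 with array weights, instead of 8, against 37.6% of all genes. The cause of these shifts was not tested. In males it was 0 in every alternative run.

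Leaving out 1 library gave 0 to 1 members over both sexes (Mrpl39 without M_DM replicate 5, Mrpl1 without F_DM replicate 3) and 0 in males. In females it gave 0 to 1 (Mrps24 without M_DM replicate 2 or 5, Mrpl1 without F_DM replicate 3). In the difference it gave 0 to 2 (Mrps24 and Mrpl3 without M_DM replicate 5). Between the sexes it gave 5 to 21 (without M_NM replicate 2 and without M_DM replicate 5). The shares of all genes called in these fits are not given here.

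Mice of different groups share replicate numbers. Over 27 pairs with the same number, the deviations of all tested genes from their group means had correlations of -0.489 to 0.529 (median -0.03, and -0.02 over 108 other pairs), and a heart correlated best with its own number in 9 of 57 cases, so the numbers were not taken as pairs. With the replicate block, 0 members passed over both sexes, in males, in females and in the difference. Between the sexes 7 passed, against 28.6% of all genes. The number of all genes called in males fell to 106 with the block, against 207 without it.

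Read depth is unknown, and precision rests on 4 or 5 mice per group.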
